A study of Mus musculus with 6 samples.

Results

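The MCM helicase family comprised 9 genes, Mcm2 to Mcm10, of 19988 named genes on the array. They were found as non-control probes whose RefSeq accession carries one of these symbols, which gave 10 probes: 1 for each gene except Mcm8, which had 2. All 10 were well above background on all 6 arrays. RNA came from sorted S-phase cells of the E14.5 mouse dorsal telencephalon, which becomes the cerebral cortex. There were 3 arrays for the Tis21-GFP positive fraction and 3 for the Tis21-GFP negative fraction. Every embryo was heterozygous for a GFP knock-in at Tis21 (the gene Btg2) on a C57BL/6 background, the labels' strain being C57BL/6J, so both groups carry the same allele and differ in whether the cell showed GFP. GFP from this locus marks progenitors that have turned to neuron production, and the title of the series concerns a shorter S phase after that switch. Per the design text, 1 replicate pooled the cells of 15 embryos (30 hemispheres, roughly 200000 cells after sorting), and the authors kept 3 experiments out of a larger set. S phase was taken as a DNA content between that of G1 and G2 cells on a vital dye.

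The proteins Mcm2 to Mcm7 form the ring-shaped hexamer that is the motor of the replicative DNA helicase. Before S phase the origin recognition complex, Cdc6 and Cdt1 load the ring onto DNA as an inactive pair of hexamers, which licenses the origin. Cdc45 and the GINS complex then join each ring to make the active helicase. Mcm8 and Mcm9 are later-branching relatives that work together in homologous recombination, and Mcm10, which is not a ring subunit in spite of its name, helps to activate the loaded helicase.

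Values below are scaled log2 signals: the log2 of the spot's processed intensity minus the 75th percentile of the same array. They compare arrays for 1 probe and not 1 probe with another. A difference is Tis21-GFP positive minus negative, with its moderated standard error from limma (n = 3 arrays per group throughout), and a call means a Benjamini-Hochberg adjusted p below 0.05 over all 28922 probes tested. In these bulk samples, fewer cells of a type and less RNA per cell cannot be told apart.

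Transcripts of 4 of the 6 hexamer genes, Mcm2, Mcm4, Mcm5 and Mcm6, rose in Tis21-GFP positive cells, by 1.5 to 2.2 times. Mcm7 and Mcm10 lay higher without passing the test, Mcm3 and Mcm8 differed little, and Mcm9 had the only negative difference of the 9 genes. No member was called lower. Across all tested probes 16.5% were called, 7.52% higher and 8.96% lower. With same-numbered arrays taken as pairs the same 4 genes were called, against 18.2% of all probes (7.85% higher and 10.4% lower). The family is among the bright probes, and 7 of its 10 probes lie among the brightest 20% of probes, where 12.2% were called higher and the median difference was 0.29, against 0.09 over all probes. Mcm2 was the only member called under every processing setting that was tried.

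**Figure D1:**
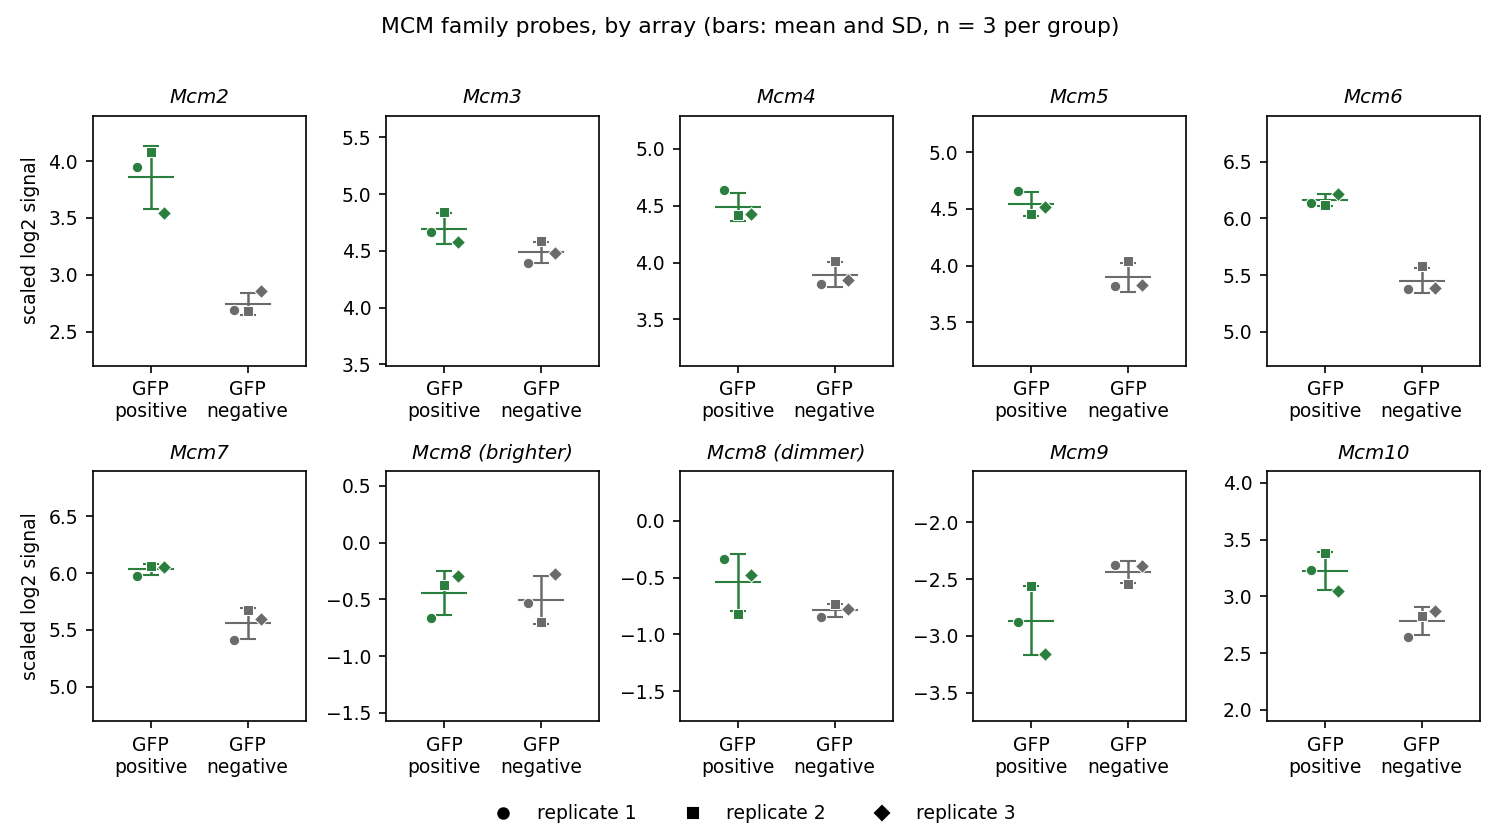
Scaled log2 signal of each MCM family probe (vertical axis, each panel spanning the same range) on the 3 Tis21-GFP positive arrays, drawn left, and the 3 negative arrays, drawn right; bars show the mean and SD and symbols the replicate number. The groups are apart for Mcm2, Mcm4, Mcm5, Mcm6, Mcm7 and Mcm10, positive above negative, while Mcm3 and both Mcm8 probes overlap.

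Mcm2, the ring subunit whose N-terminal tail also binds histones, showed the largest difference of the family. Its signal was 3.95, 4.08 and 3.54 on the Tis21-GFP positive arrays, against 2.69, 2.68 and 2.86 on the negative arrays. The groups did not overlap, and the third positive array was the lowest of its group by a clear margin. The difference was 1.11 ± 0.18, a 2.16-fold higher signal, with a 95% interval of 0.70 to 1.52 (limma adjusted p = 0.00587). Of all tested probes, 98.0% had a smaller difference. By replicate number, positive minus negative was 1.25, 1.40 and 0.69.

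Mcm6, Mcm4 and Mcm7 form a stable subcomplex that has helicase activity in vitro. Mcm6 had signals of 6.14, 6.12 and 6.22 on the positive arrays, against 5.38, 5.58 and 5.39 on the negative arrays. The 3 positive values lay within a narrow band well above every negative value. The difference was 0.71 ± 0.14 (limma adjusted p = 0.0132), or 1.64-fold, with an interval of 0.39 to 1.03. Mcm4 had 4.64, 4.42 and 4.43 on the positive arrays, against 3.81, 4.02 and 3.85 on the negative arrays, again with no overlap. Its difference was 0.60 ± 0.14 (limma adjusted p = 0.0297), or 1.52-fold. Mcm7, the subunit that contacts the retinoblastoma protein in human cells, had 5.98, 6.07 and 6.05 on the positive arrays, against 5.41, 5.67 and 5.59 on the negative arrays. Its groups did not overlap either, but the difference of 0.47 ± 0.14 missed the threshold (limma adjusted p = 0.0573), with an interval of 0.15 to 0.80.

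Mcm2 with Mcm5 forms the gate through which the ring opens around DNA, and Mcm3 sits beside Mcm5 in the ring. Mcm5 had signals of 4.66, 4.45 and 4.52 on the positive arrays, against 3.82, 4.04 and 3.83 on the negative arrays. The groups were apart, and the difference was 0.65 ± 0.14 (limma adjusted p = 0.0228), or 1.56-fold, with an interval of 0.31 to 0.98. Mcm3 had 4.66, 4.84 and 4.58 on the positive arrays, against 4.40, 4.58 and 4.48 on the negative arrays. The highest negative array slightly exceeded the lowest positive one, so the groups overlapped. The difference was 0.21 ± 0.14 (limma adjusted p = 0.344), with an interval of -0.13 to 0.54. Mcm3 took the opposite sign under quantile normalization (-0.07), in the deposited value table (-0.07), under cyclic loess (-0.06) and after a normexp correction of median spot signals (-0.11).

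The size of the difference varied among the ring subunits. Set against the mean of the other 5 subunits on the same array, the difference of Mcm2 exceeded theirs by 0.59 and that of Mcm3 fell short by 0.50 (-0.50), and in both cases the positive and negative arrays did not overlap. For Mcm4, Mcm5, Mcm6 and Mcm7 the same quantity was -0.03, 0.02, 0.10 and -0.18, with overlap between the groups. Mcm2 and Mcm3 had the largest and smallest differences of the ring, so their lack of overlap follows in part from that choice. For Mcm2 the lowest positive array had -1.61 and the highest negative array -1.77. The share of other genes without overlap in such a contrast was not computed. A test of these contrasts between members was not made.

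**Figure D2:**
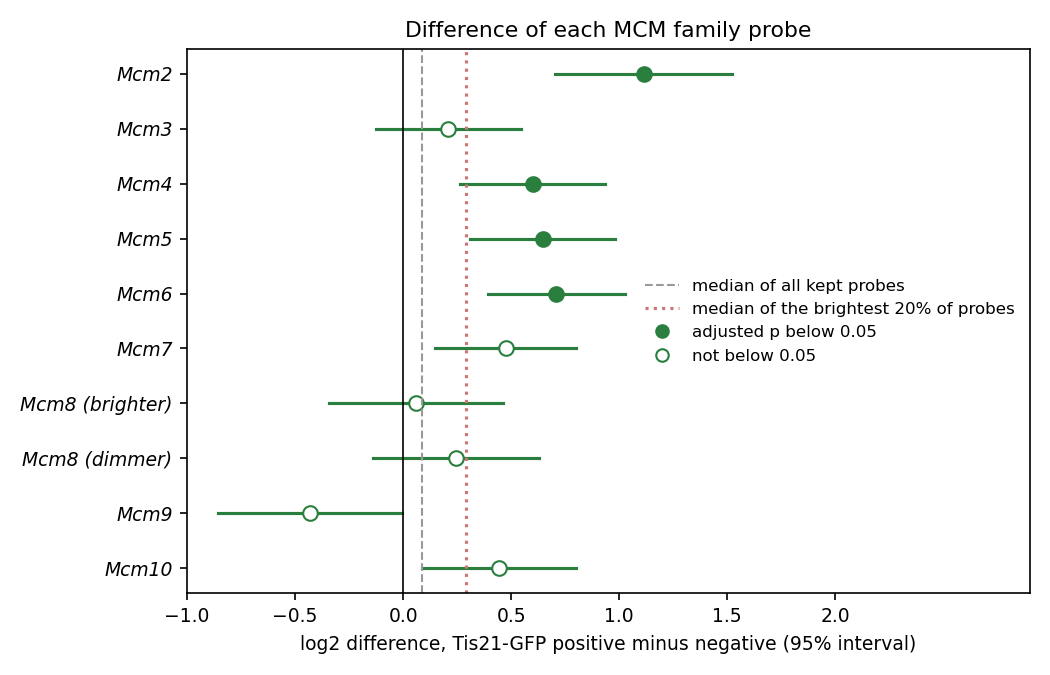
Log2 difference, Tis21-GFP positive minus negative, of each MCM family probe with its 95% interval (horizontal axis); filled circles have an adjusted p below 0.05. Mcm2 stands apart at 1.11, Mcm4, Mcm5 and Mcm6 lie between 0.60 and 0.71, and the dashed and dotted lines mark the medians of all kept probes (0.09) and of the brightest 20% of probes (0.29).

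Mcm10, which binds the loaded helicase and DNA polymerase alpha, had signals of 3.23, 3.38 and 3.05 on the positive arrays, against 2.64, 2.83 and 2.87 on the negative arrays. The groups did not overlap. The difference of 0.44 ± 0.15 did not pass (limma adjusted p = 0.0880), with an interval of 0.09 to 0.80. It had the same sign under all alternatives that could change it, between 0.20 and 0.62.

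Mcm8 and Mcm9, the recombination pair, did not pass the test. The brighter Mcm8 probe had -0.66, -0.37 and -0.30 on the positive arrays, against -0.53, -0.70 and -0.28 on the negative arrays. The values of the groups were interleaved, with a difference of 0.06 ± 0.17 (limma adjusted p = 0.835) and an interval of -0.34 to 0.46. The dimmer Mcm8 probe had -0.33, -0.82 and -0.47 on the positive arrays, against -0.85, -0.73 and -0.78 on the negative arrays, and a difference of 0.24 ± 0.17 (limma adjusted p = 0.332). Both probes carry the same transcript accession, so they are not replicates, and neither passed. Mcm9 was the dimmest member, with processed intensities of 42.2, 49.8 and 23.8 on the positive arrays, against 63.5, 58.3 and 54.5 on the negative arrays. Its scaled signals were -2.88, -2.56 and -3.16 on the positive arrays, against -2.38, -2.55 and -2.38 on the negative arrays. The second positive and second negative arrays were almost equal, so the groups were only just apart. The difference of -0.43 ± 0.18 did not pass (limma adjusted p = 0.145), and its interval ran from -0.86 to -0.01. The Mcm9 difference stayed negative over the alternatives that could change it, between -0.61 and -0.13. It passed in none of the alternatives.

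Groups without overlap in the upward direction were found for 6 of the 10 probes, those of Mcm2, Mcm4, Mcm5, Mcm6, Mcm7 and Mcm10, against 24.6% of all tested probes (40.6% counting either direction). In the downward direction this held for Mcm9, against 16% of all tested probes. The mean scaled signal of the 6 ring subunits was 5.00, 5.00 and 4.89 on the positive arrays, against 4.25, 4.43 and 4.33 on the negative arrays. The 2 sets of means did not overlap. Most of these subunits were already apart individually, so this adds no support.

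The size of the ring difference moved with the way the arrays were scaled, while its distance from other bright probes moved less. The median difference of Mcm2 to Mcm7 was 0.62. It was 0.80 with median centring, 0.45 when the percentile was taken over detected probes, 0.36 with quantile normalization, 0.36 with the deposited value table, 0.37 with cyclic loess and 0.30 with normexp background. The median of the brightest 20% of probes was 0.29 as scaled here, 0.03 with quantile normalization and 0.01 with cyclic loess. Between the ring median and the median of those bright probes, the distance was 0.33 as scaled here, 0.33 with quantile normalization and 0.36 with cyclic loess, and over all 17 alternatives it ran from 0.26 to 0.40. Median centring and the percentile over detected probes shift all probes of an array alike, so they could hardly change this distance. The variance trend, the replicate block, the lack of a filter and the summaries by gene could not change the ring differences. The ring median was positive in each setting, while the calls of Mcm4, Mcm5 and Mcm6 did not hold in all of them. With quantile normalization, cyclic loess, the deposited value table, and no filter on dim probes, Mcm2 alone was called among the 9 genes. In that order, 6.1%, 5.03%, 6.07% and 1.35% of all probes were called higher.

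**Figure D3:**
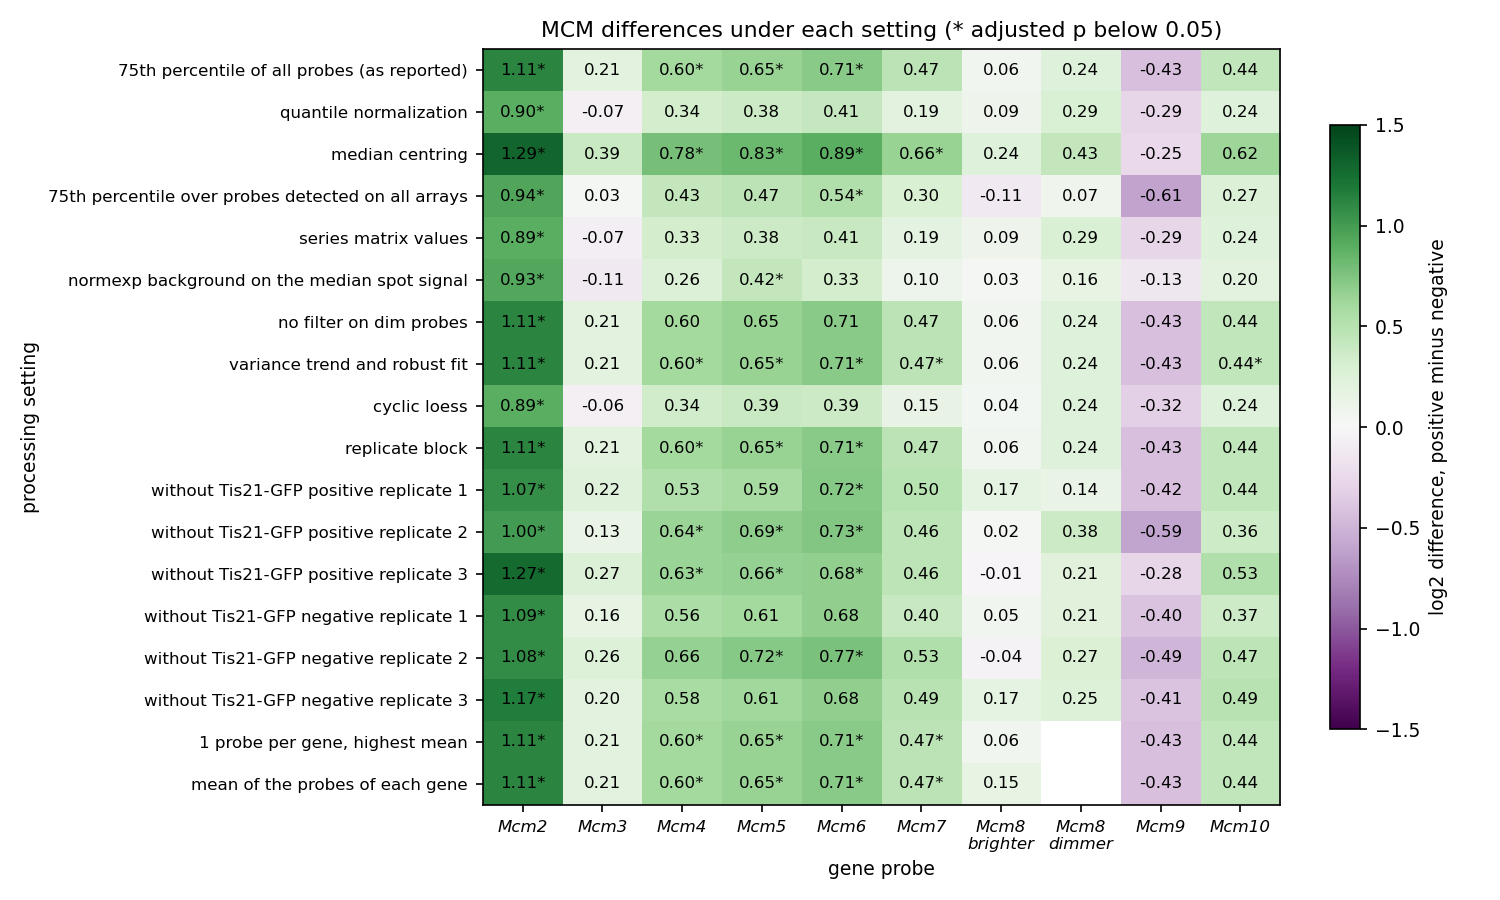
Log2 difference, Tis21-GFP positive minus negative, of each MCM family probe (columns) under each processing setting (rows), with an asterisk for an adjusted p below 0.05. The Mcm2 column carries an asterisk in every row, from 0.89 to 1.29, whereas Mcm3 changes sign between rows.

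The calls also depended on single arrays. Without Tis21-GFP negative replicate 1, and likewise without Tis21-GFP negative replicate 3, Mcm2 was the 1 family gene called. Mcm6 then had 0.68 in both cases (limma adjusted p = 0.0641 and 0.0645), Mcm5 had 0.61 in both cases and Mcm4 had 0.56 and 0.58. Without Tis21-GFP positive replicate 1, Mcm2 and Mcm6 were called, and Mcm5 (0.59) and Mcm4 (0.53) were not. Without Tis21-GFP negative replicate 2, Mcm4 alone of the 4 was lost (0.66, limma adjusted p = 0.0551). With 1 array left out, between 2.48% and 6.73% of all probes were called higher. Mcm2 had adjusted p between 0.000587 and 0.0362 over all alternatives.

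Some partners of the ring rose beside it. Of 23 genes of helicase loading and activation, all tested by their highest-mean probe, 9 rose and 0 fell, with a median difference of 0.42. Of the 13136 named genes that passed the filter and were tested in that way, 9.13% were called higher and 11.3% lower. These 13136 are meant by all named genes here and below. Cdc6, which loads the ring, rose by 1.32 ± 0.21 (limma adjusted p = 0.00584), and its partner Cdt1 by 0.60. Cdc45 rose by 1.18 ± 0.15 and the GINS subunit gene Gins1 by 0.77 ± 0.14, whereas Gins2, at 0.15, did not pass. In the origin recognition complex, Orc6 rose by 0.57 ± 0.13 and Orc2 by 0.58, while the largest subunit gene, Orc1, had -0.13 and did not pass. The kinase gene Cdc7, which phosphorylates the loaded ring, had 0.04 and did not pass. The number of loading and activation genes called higher ran from 2 to 12 over the alternatives. It ran from 2 to 5 when 1 array was left out, and the list's median stayed positive throughout. This list and the companion lists below were not matched to all named genes for probe brightness. Of the brightest 20% of probes, 12.2% were called higher and 2.64% lower, with a median difference of 0.29. With cyclic loess the bright probes had a median of 0.01 and the loading and activation list 0.22.

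Of 9 tested genes that bind or assist MCM proteins, 1 rose and 0 fell, a count near the background of 9.13% higher among all named genes, with a median of 0.47. With the replicate block 2 rose. The riser was Tipin, of the fork protection complex, at 0.71 ± 0.15 (limma adjusted p = 0.0182). It was not called without Tis21-GFP positive replicate 1, negative replicate 1 or negative replicate 3, nor with quantile normalization, the deposited value table, cyclic loess or no filter on dim probes, where 0 genes of this list passed. Its partner Timeless had 0.47 ± 0.14 and did not pass. Mcmbp, which binds MCM subunits, had 0.09, Mcm3ap 0.18 and Hrob, which loads the Mcm8-Mcm9 helicase in human cells, 0.12, none of which passed. Mcmdc2 was below the filter on dim probes. Among 21 other DNA helicases, 1 rose and 0 fell, a share below the 9.13% of all named genes called higher, with a median of 0.17. That 1 was Dna2, a nuclease and helicase of flap processing, at 0.89 ± 0.17 (limma adjusted p = 0.0132). With no filter on dim probes 0 genes of this list passed. The median of this list was as low as 0.00 (-0.00317) under the other scalings.

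**Figure D4:**
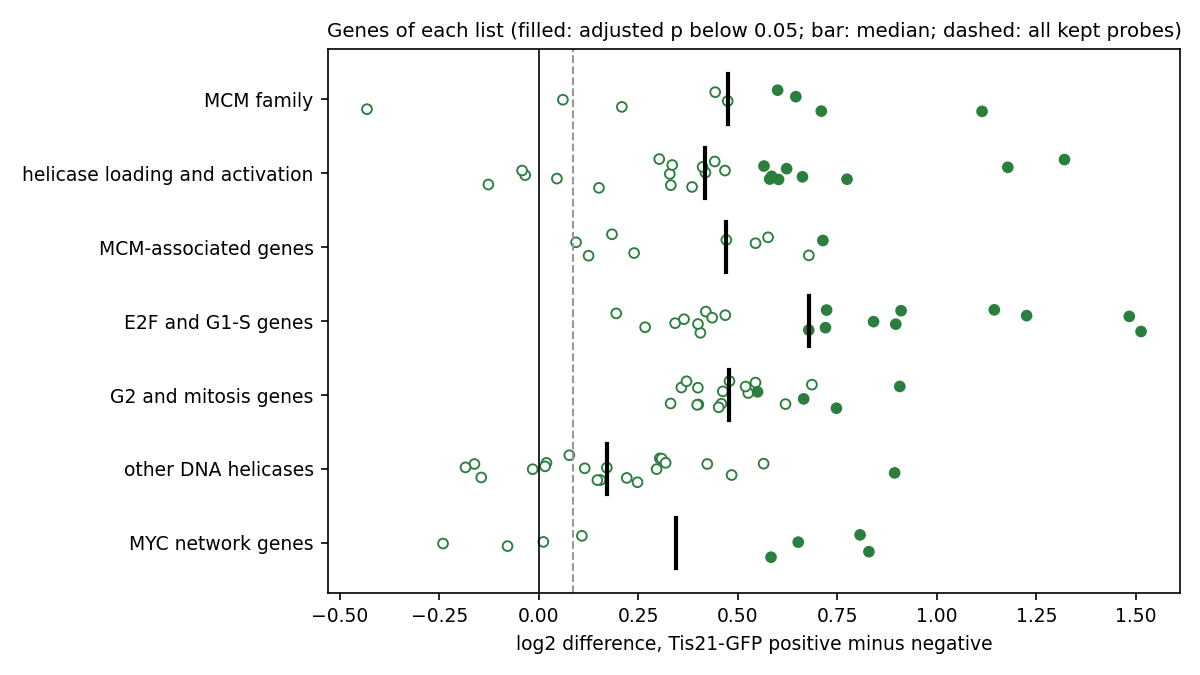
Log2 difference, Tis21-GFP positive minus negative, of each gene of the MCM family and of the companion lists (1 circle per gene by its highest-mean probe, filled where the adjusted p is below 0.05, black bars at the medians, dashed line at the median of all kept probes). The medians are 0.42 for helicase loading and activation, 0.68 for E2F and G1-S genes, 0.48 for G2 and mitosis genes and 0.17 for other DNA helicases.

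MCM genes are classical targets of the E2F factors, which drive the transcription of S-phase genes. A list of other E2F and G1-S genes is therefore given, but a role of E2F factors in the MCM differences was not tested. Of 19 tested E2F and G1-S genes, 10 rose and 0 fell, against 9.13% higher and 11.3% lower among all named genes, with a median of 0.68. Rrm2, a subunit of ribonucleotide reductase, rose by 1.51 ± 0.15 (limma adjusted p = 0.000931), E2f1 by 1.48 ± 0.15, E2f2 by 1.23 ± 0.17 and Ccne1, which encodes cyclin E1, by 1.14 ± 0.15. This list had between 6 and 13 genes called higher over the alternatives, with the fewest without Tis21-GFP negative replicate 3. Of 19 tested G2 and mitosis genes, 4 rose and 0 fell, against the same 9.13% and 11.3%, with a median of 0.48. The 4 were Top2a at 0.91 ± 0.18, Kif11 at 0.75 ± 0.15, Kif20a at 0.67 ± 0.17 and Birc5 at 0.55 ± 0.15. Of the brightest 20% of probes, 12.2% were called higher and 2.64% lower, with a median of 0.29. With cyclic loess those bright probes had a median of 0.01. The E2F and G1-S list then had 0.50 and the G2 and mitosis list 0.21. The part of probe brightness in these medians was not tested. Without Tis21-GFP negative replicate 1, without negative replicate 3, and with no filter on dim probes, 0 genes of the G2 and mitosis list passed. Of 8 tested genes of the MYC network, another regulator of growth and S phase, 4 rose and 0 fell. Among all named genes 9.13% were called higher and 11.3% lower. The 4 were Mxd4 (0.83), Mycl (0.81), Mxd3 (0.65) and Mxd1 (0.58). The Mxd genes encode MAX partners that oppose MYC, and Mycl a member of the MYC family. Myc had -0.24 and Mycn 0.01, neither of which passed. Without any 1 of the 3 negative arrays, and with no filter on dim probes, 0 genes of this list passed.

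RefSeq promoter windows, 250 bases before to 50 after a transcription start on GRCm38.p6, were at hand for 8 of the 9 genes and not for Mcm4. They are shown because genes with E2F-type letters near their start can be set beside the genes that moved. An E2F-type site was searched on both strands as any of TTTCCCGC, TTTCGCGC, TTTGCCGC and TTTGGCGC, and neighbouring matches may overlap. Such a site was present in 2.26% of all 32851 windows. Counted by gene, a window with one was found for 5 of the 8 family genes, against 2.6% of all genes with a window and 4.53% of the 10474 tested genes outside the family. Mcm6 had 3 matches, Mcm3, Mcm5 and Mcm7 had 2 each, and Mcm8 had 1. The windows of Mcm2, Mcm9 and Mcm10 held 0 matches to these letters. The Mcm10 window ends in TTTGGCG, so a TTTGGCGC that runs past its edge would not be seen. Capitals below mark the matches, each sequence reads 5′ to 3′ on the gene's own strand, and the Mcm2 window is shown for contrast.

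Mcm6, chr1:128359656-128359955, minus strand: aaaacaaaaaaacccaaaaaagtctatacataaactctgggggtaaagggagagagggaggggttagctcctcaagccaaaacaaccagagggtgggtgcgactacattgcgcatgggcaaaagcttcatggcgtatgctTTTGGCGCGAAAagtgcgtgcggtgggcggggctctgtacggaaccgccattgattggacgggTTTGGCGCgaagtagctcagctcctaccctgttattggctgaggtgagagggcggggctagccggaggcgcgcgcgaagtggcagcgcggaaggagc
Mcm5, chr8:75109259-75109558, plus strand: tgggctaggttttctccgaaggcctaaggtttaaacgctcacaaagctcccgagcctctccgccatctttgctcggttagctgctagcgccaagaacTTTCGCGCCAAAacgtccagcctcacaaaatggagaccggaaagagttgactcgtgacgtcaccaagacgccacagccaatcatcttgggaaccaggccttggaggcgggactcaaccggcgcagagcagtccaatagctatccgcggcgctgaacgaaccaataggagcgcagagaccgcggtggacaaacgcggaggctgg
Mcm7, chr5:138171834-138172133, minus strand: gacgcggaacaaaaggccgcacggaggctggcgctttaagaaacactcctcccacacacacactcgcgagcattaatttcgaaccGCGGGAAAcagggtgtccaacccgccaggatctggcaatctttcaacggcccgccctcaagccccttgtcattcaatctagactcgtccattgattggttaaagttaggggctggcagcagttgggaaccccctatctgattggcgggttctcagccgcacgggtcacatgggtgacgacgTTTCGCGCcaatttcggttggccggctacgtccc
Mcm3, chr1:20820263-20820562, minus strand: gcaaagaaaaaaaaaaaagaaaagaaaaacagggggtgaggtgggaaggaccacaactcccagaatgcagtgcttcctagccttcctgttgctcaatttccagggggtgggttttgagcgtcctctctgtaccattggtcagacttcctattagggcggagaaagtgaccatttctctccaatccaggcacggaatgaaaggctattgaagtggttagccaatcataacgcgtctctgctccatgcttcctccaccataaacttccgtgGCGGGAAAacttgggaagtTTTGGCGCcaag
Mcm2, chr6:88898731-88899030, minus strand: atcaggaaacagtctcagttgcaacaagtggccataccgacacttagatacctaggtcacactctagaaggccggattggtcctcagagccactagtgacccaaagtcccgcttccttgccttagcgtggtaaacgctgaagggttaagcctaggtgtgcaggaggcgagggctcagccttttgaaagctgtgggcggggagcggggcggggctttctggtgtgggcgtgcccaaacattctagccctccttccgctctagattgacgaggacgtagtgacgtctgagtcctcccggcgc

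In the Mcm6 window the matches start 110, 106 and 47 bases before the transcription start. Mcm5 has an overlapping pair that starts 153 and 149 bases before it. In the Mcm7 window shown the matches start 165 bases before and 17 bases after its transcription start. Another Mcm7 window, chr5:138171217-138171516, belongs to a different start and held 0 matches. In Mcm3 both matches lie after the start, from bases 20 and 39. Of the 5 genes with matches, Mcm5 and Mcm6 were called higher, and Mcm3, Mcm7 and Mcm8 did not pass. Of the 3 without a full match inside the window, Mcm2 was called higher, and Mcm9 and Mcm10 did not pass. A CCAAT box, searched as CCAAT on both strands, was in a window of all 8 genes, against 43.3% of the tested genes outside the family (37.4% of all windows). The CHR element TTTGAA, known from promoters of G2 and mitosis genes, was in the window of Mcm2 alone, 70 bases before its start, against 14.3% of the tested genes outside the family (17.9% of all windows). Outside the family, 474 tested genes had an E2F-type site in a window, of which 12.7% were called higher and 7.81% lower, with a median difference of 0.27. Of 10000 tested genes with a window but no such site, 8.94% were called higher and 10.9% lower, with a median of 0.11. Genes with and without a site were not matched for probe brightness. A link between the sites and the differences was not tested.

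Some members share their locus with another gene, and the values of those neighbours are given here, chosen after they were seen. Prkdc, which encodes the catalytic subunit of DNA-PK and lies within 1000 bases of Mcm4, had a difference of 0.13 ± 0.16 (limma adjusted p = 0.588). Ap4m1, an adaptor complex subunit gene within 1000 bases of Mcm7, rose by 0.57 ± 0.16 (limma adjusted p = 0.0486). Cops6, likewise near Mcm7, had 0.35 ± 0.19, Trmt6, next to Mcm8, had -0.05 ± 0.16, and Asf1a, a histone chaperone gene that lies within the span of Mcm9, had 0.42 ± 0.15, none of which passed.

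Over the 6 arrays, the 6 genes whose profile lay nearest to the mean profile of Mcm2 to Mcm7 were Sh3bgrl2, Tspan14, Eme1, Asb1, Mzt1 and Paics. Likeness was the Euclidean distance between signals centred on their own mean, over 13125 genes, and these 6 had distances of 0.06 to 0.09. Eme1 encodes a partner of the Mus81 structure-specific nuclease, Mzt1 a protein of the gamma-tubulin complex and Paics an enzyme of purine synthesis. By the same measure Mcm4 ranked 38, Mcm5 63, Mcm6 117, Mcm7 250 and Mcm10 536, whereas Mcm3 ranked 3028, Mcm2 5308, Mcm8 7001 and Mcm9 10221. The profile mean holds the ring genes themselves, so the ranks of those genes are a description.

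The labels were checked by their markers. Btg2, the reporter locus, was higher by 0.77 ± 0.18 in positive cells (limma adjusted p = 0.0258). Of 12 intermediate progenitor markers 11 rose, and of 13 radial glia markers 12 fell. Of 11 postmitotic neuron markers 5 rose and 4 fell, and none of 6 tested erythroid markers passed. Many markers of other cell types, but not all, moved with the groups in the direction opposite to the ring genes. Of 11 tested microglia and macrophage markers 10 fell, and their mean scaled signal was -1.84 to -1.05 on the positive arrays, against 0.35 to 0.84 on the negative arrays. Laptm5, counted among them, was not well above background in any positive sample. All 9 markers of meninges and mesenchyme fell (-3.43 to -2.97, against -0.55 to 0.49), with Col3a1, Lum and Pdgfra not well above background in any positive sample. Of 8 tested endothelial and pericyte markers 4 fell (-3.66 to -3.25, against -1.67 to -1.23), Esam among them. Pecam1, Flt1, Cldn5 and Kdr did not pass, and Kdr had the only positive difference of this list, 0.45 ± 0.15. Pdgfrb, Rgs5 and Abcc9, which fell, were not well above background in any positive sample. Genes so marked were kept for testing through the negative arrays alone. The same held for Cx3cr1, Col1a1, Nid1, Flt1 and Alas2, which were well above background on only some positive arrays. Neurog1 was kept through the positive arrays alone. The marker counts include these genes, so for them the direction is not independent of the filter. The part of these cells in the MCM differences was not tested. Arrays of 1 group correlated at 0.981 to 0.992 across probes, and arrays of different groups at 0.963 to 0.977.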

How the data were processed

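RNA of sorted cells was amplified from 50 ng, labelled with Cy3 and hybridised to 6 one-colour Agilent arrays on 1 slide, per the labels and the file headers. The deposited scanner files hold intensity values from Agilent Feature Extraction 10.7.1.1, background-subtracted by that software and not scaled between arrays. A second deposited table by the authors is in log2 units and followed the log2 scanner intensity of each array (correlation at least 0.999). Its column medians were all 4.67, so genes were not centred. The steps behind it are not given in the labels or headers. Its median difference of Mcm2 to Mcm7, 0.358, lay near the 0.361 of quantile normalization of the scanner values. These 2 alternatives are therefore not separate support.

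Control spots and outlier-marked spots (118 to 191 per array) were left out, 0 spots were saturated, and spots of a probe were averaged as log2. From each array its 75th percentile over the 55681 probes (213 to 341 intensity units) was subtracted. Probes well above background on all 3 arrays of a group were kept (28922), between 51.2% and 56.2% of probes being so marked per array, and precision is limited by how few arrays there were. Probes were named through RefSeq accessions without versions (GRCm38.p6), which named 26370. Limma 3.58.1 in R 4.3.3 was fitted with group as the only term and Benjamini-Hochberg adjustment over all kept probes, and was tested on simulated data. For genes outside the family the probe with the highest mean was used.

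The members, lists and rules were chosen with earlier results of these data known. Besides the 9 members and Btg2, the rule for named genes took up to 4 genes per companion list by adjusted p and the 6 nearest profiles; other genes are named after their values were seen. Both groups carry replicate numbers 1 to 3 in the labels. Same-numbered arrays deviated together from their group means (r = 0.23, 0.13 and 0.37 across probes), and other pairs reached at most 0.06. The replicate block, an alternative, therefore took same-numbered arrays as pairs, from the numbers in the labels. All other standard errors, intervals and p-values come from fits without pairs. P-values measure the spread between these pools. Of the 6 files, 0 pairs were identical. Protein sequences were not used here. Alternatives covered scaling, background, the filter, the probe summary, the variance model, the replicate block and leaving out each array. Cyclic loess was chosen after seeing the data.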

Additional observations from a re-analysis of the deposited data

How the results depend on the processing

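The direction of Mcm2, Mcm4, Mcm5, Mcm6, Mcm7, Mcm9, Mcm10 and the dimmer Mcm8 probe was kept under every alternative that gave them a value (17, or 15 for the dimmer Mcm8 probe). The variance trend, the replicate block and the lack of a filter could not change these differences. For a gene with 1 probe, the summaries by gene could not either. Those settings are therefore no support for a kept direction. Mcm3 turned to -0.0694 with quantile normalization, -0.0723 with the series matrix values, -0.111 with normexp background and -0.0644 with cyclic loess. The brighter Mcm8 probe turned to -0.114 with the percentile over detected probes, -0.0128 without Tis21-GFP positive replicate 3 and -0.0393 when the second negative array was omitted, the highest value with 1 array omitted being 0.172. The cause of these turns was not tested. Of the 9 family genes, 4 were called as reported. The number was 1 with quantile normalization, 1 with the series matrix values, 1 with cyclic loess, 1 with no filter on dim probes, 2 with the percentile over detected probes and 2 with normexp background. In that order, 6.1%, 6.07%, 5.03%, 1.35%, 3.78% and 6.78% of all probes were called higher. Family calls numbered 6 with the variance trend and robust fit, which added Mcm7 (0.47) and Mcm10 (0.44), and 5 with median centring and with either summary by gene, which added Mcm7. The share called higher was then 11.8% of all probes with the variance trend and 12.6% with median centring. It was 12.8% and 13.3% of genes with the summaries. Of the brightest 20%, it was 27.0% with the variance trend and 21.3% with median centring. Leaving out 1 array gave 1 to 4. The median difference of Mcm2 to Mcm7 moved to 0.361 with quantile normalization, 0.804 with median centring, 0.449 with the percentile over detected probes, 0.358 with the series matrix values, 0.295 with normexp background and 0.365 with cyclic loess, and ran from 0.558 to 0.690 when 1 array was left out. Over all probes, 2174 were called higher and 2591 lower. Higher calls numbered 3632 with median centring, 1092 with the percentile over detected probes, 751 with no filter and 3425 with the variance trend and robust fit, and 737 to 1979 when 1 array was left out. Lower calls numbered 1518 with no filter, 1716 with 1 probe per gene and 1349 to 2770 when 1 array was left out. Higher calls were 45.6% of all calls as reported, 65.2% with median centring, 24.8% with the percentile over detected probes, 33.1% with no filter, 55.4% with the variance trend and robust fit and 36.5% with cyclic loess. The replicate block kept the 4 family calls, with adjusted p of 0.0158 for Mcm2 and 0.0457 for Mcm4, and 5265 probes were called with it, against 4765. The block moved 1 list count by over 1.5 times, given above. The cause of the other changes was not tested. Mcm9 lay nearest to background, which limits its precision.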
